A study of Homo sapiens with 8 samples.

Results

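ACKR3, the atypical chemokine receptor also known as CXCR7, was followed in U2OS cells together with 4 genes of its signalling axis, CXCR4, CXCL12, ARRB1 and ARRB2. These 5 genes of the 58735 genes measured were listed by symbol and matched to Ensembl identifiers with release 29 of GENCODE. They were selected on the FPKM of ACKR3, which was lower after WSB2 knockdown and after TNF-α stimulation in these same libraries. The ACKR3 values below are therefore a description and carry no test. U2OS is a human osteosarcoma cell line, and all groups were U2OS cells stably transduced by lentivirus and selected with puromycin. They carried either a control shRNA, labelled WT and here called control cells, or an shRNA against WSB2, here called KD cells. WSB2 is a substrate receptor of a ubiquitin ligase, and the study asked how its loss alters gene expression after TNF-α, an inflammatory cytokine that activates NF-κB. Total RNA was sequenced in 8 libraries, 2 for each of 4 groups: control and KD cells without TNF-α, and control and KD cells given TNF-α for 5 hours. The labels do not say that the libraries of a group came from separate cultures, so p-values measure only the spread between these libraries. Which WSB2 shRNA was used and at what TNF-α concentration is not given in the sources used here for these libraries.

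CXCL12 is a chemokine that guides the migration and homing of cells. It signals through CXCR4, a classical receptor that couples to Gi proteins, and it is also bound by ACKR3, which recruits β-arrestins, does not signal through G proteins in the usual way, and carries its ligands into the cell for degradation. ARRB1 and ARRB2 encode β-arrestin 1 and β-arrestin 2, the adaptors that bind receptors phosphorylated by the G-protein-coupled receptor kinases (GRKs) and link them to clathrin for endocytosis. ACKR3 also binds CXCL11, adrenomedullin and opioid peptides, and is known to be expressed by endothelial cells and by many tumours.

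The coding bases around the DRY box, the conserved stretch at the cytoplasmic end of the third transmembrane helix through which classical receptors engage G proteins, are shown for ACKR3 and CXCR4 because they differ between the atypical and the classical CXCL12 receptor. The stretch spans chr2:236580865-236580927 on the plus strand in ACKR3 and chr2:136115490-136115552 on the minus strand in CXCR4 (GRCh38, GENCODE transcript 201 of each gene), and both lie within a coding exon. The 7 codons of the box are in capitals and are codons 141 to 147 of the 362 of ACKR3 and 133 to 139 of the 352 of CXCR4.
ACKR3: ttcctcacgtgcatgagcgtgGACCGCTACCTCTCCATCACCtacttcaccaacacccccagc
CXCR4: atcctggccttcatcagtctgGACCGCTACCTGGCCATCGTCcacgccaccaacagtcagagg
Of the 21 bases in capitals 4 differ, and 4 of the 7 codons are identical. Across the 63 bases printed 20 differ.

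The libraries held between 15601098 and 18677023 reads assigned to genes. Values are FPKM (fragments scaled to exon length and to library size), so that levels can be set side by side between genes. WSB2 itself fell in KD cells. It stood at 27.9 ± 0.198 FPKM in control and 8.45 ± 0.0955 in KD cells without TNF-α, and at 25.1 ± 0.196 and 9.09 ± 0.128 with TNF-α (mean ± SD, n = 2 each), log2 differences of -1.61 (adjusted p = 0.000119, limma) and -1.37 (adjusted p = 0.00113, limma). The 2 KD libraries without TNF-α stood apart from the other 6. Mitochondrial genes took 4.10% and 4.42% of their reads against 1.11% to 2.03% elsewhere, their read-weighted exon GC content was 49.4% and 49.9% against 52.5% to 53.2%, and 26225 and 26397 genes had a read against 22072 to 22957. Every comparison that uses these 2 libraries therefore contains this difference as well as that of the treatment, and the 2 cannot be told apart. Of 8 mesenchymal and osteoblast markers 6 reached 1 FPKM, among them VIM, COL1A1, SPARC and RUNX2, while COL1A2 stayed at or under 0.0934 FPKM and TWIST1 had no read. No endothelial marker out of 6 and no blood marker out of 6 reached 1 FPKM in any library, and the endothelial ones summed to 0.598 to 0.989 FPKM. Among 4 epithelial markers KRT14 lay between 12.9 and 24.4 FPKM, and EPCAM, CDH1 and KRT5 did not reach 1 FPKM.

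ACKR3 had its highest level in unstimulated control cells and its lowest in stimulated KD cells. In RNA from whole cultures, fewer expressing cells and less RNA per cell cannot be told apart. ACKR3 is identified as ENSG00000144476, spans chr2:236567787-236582358 on the plus strand of GRCh38, overlaps no other annotated gene, and each of its 2 annotated transcripts has its coding sequence in 1 exon. In control cells without TNF-α it was 19.2 and 17.9 FPKM, from 650 and 701 reads. In KD cells without TNF-α it was 7.06 and 6.93 FPKM, from 316 and 302 reads. In control cells with TNF-α it was 5.54 and 6.95 FPKM, from 199 and 242 reads. In KD cells with TNF-α it was 1.64 and 1.88 FPKM, from 64 and 67 reads. The 2 intermediate groups overlapped, since the higher stimulated control library lay between the 2 unstimulated KD libraries, and the other groups were separate from each other and from these. The exact Poisson 95% interval ran from 1.26 to 2.09 FPKM for the shallowest value and from 17.8 to 20.7 FPKM for the highest, and covers counting error only. No 50-base window of the ACKR3 transcripts occurs in a transcript of another gene, out of 2209 windows.

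The group means of ACKR3 were 18.6 ± 0.896 FPKM in unstimulated control cells, 6.99 ± 0.0932 in unstimulated KD cells, 6.24 ± 0.998 in stimulated control cells and 1.76 ± 0.167 in stimulated KD cells (SD, n = 2 each). Knockdown left 37.7% of the control level without TNF-α and 28.2% with it. TNF-α left 33.6% of the unstimulated level in control cells and 25.1% in KD cells. From unstimulated control to stimulated KD cells the level was 10.6-fold lower, with the 4 ratios between single libraries running from 9.55 to 11.7. On the log2(FPKM + 1) scale, which understates the change of low values, the difference between KD and control cells was -1.29 without TNF-α and -1.39 with it (SE 0.114 each), and that between TNF-α and none was -1.44 in control and -1.54 in KD cells (SE 0.114 each). The effect of knockdown with TNF-α minus that without was -0.10 (SE 0.162, no test), and its sign depended on the scaling, being 0.11 with upper-quartile factors and -0.34 with scaling to total reads. Those 2 scalings moved the difference without TNF-α to -1.51 and -1.04, and a correction for GC content and length moved it to -1.09.

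**Figure D1:**
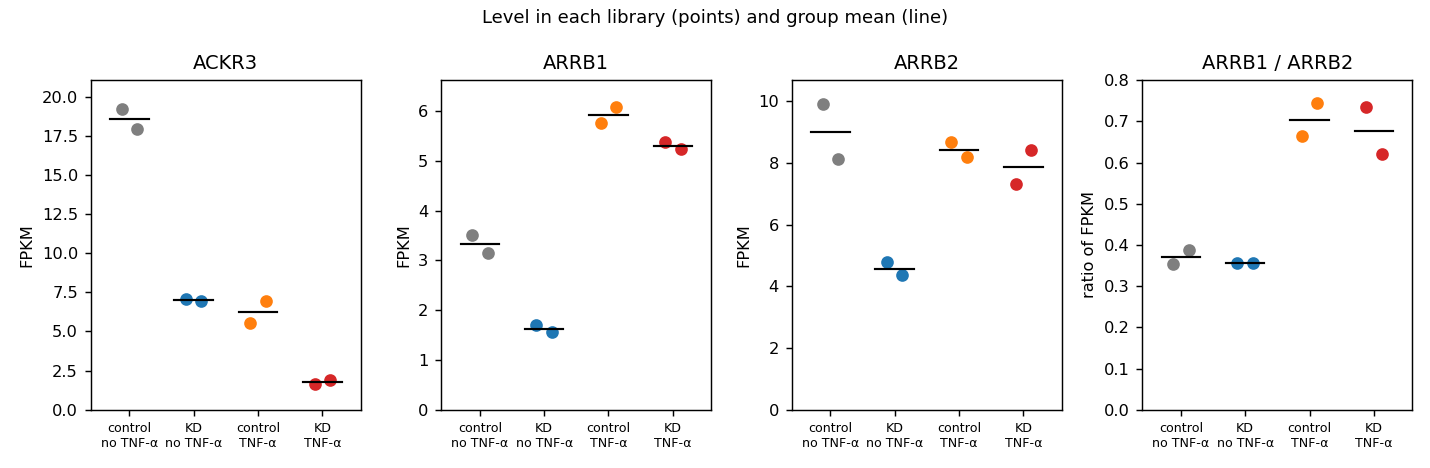
FPKM of ACKR3, ARRB1 and ARRB2 and the ratio of ARRB1 to ARRB2 FPKM on the y axes, against the 4 groups on the x axes, with a point for each of the 8 libraries and a line at the mean of the 2 libraries of a group. ACKR3 goes from a mean of 18.6 to 1.76 FPKM, both β-arrestins are lowest in unstimulated KD cells, and the ratio lies at 0.353 to 0.387 without TNF-α and 0.620 to 0.743 with it.

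CXCR4, the classical receptor for CXCL12, had no read in any of the 8 libraries. It is ENSG00000121966, chr2:136114349-136118165 on the minus strand, with 2224 bases of exon. A count of 0 allows up to 3 reads, equal to 0.0681 to 0.0900 FPKM depending on the library, so no difference between groups was detectable at this depth. Genes around it were measured. MCM6, DARS, UBXN4 and R3HDM1, all within 500 kb of CXCR4, lay between 2.42 and 25.3 FPKM. CXCR4 was among 2567 of 19951 protein-coding genes with no read in any library.

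CXCL12, the shared ligand, was close to absent. It is ENSG00000107562, chr10:44370165-44386493 on the minus strand, with 6077 bases of exon. It had 4 and 0 reads in control cells and 0 in both KD libraries without TNF-α, and 3 and 0 reads in control and 0 and 2 reads in KD cells with TNF-α. No library exceeded 0.0439 FPKM, against an upper limit of 0.0249 to 0.0329 FPKM that a count of 0 allows, so its 9 reads gave no order among the groups. Neither CXCR4 nor CXCL12 passed the filter on low reads, so neither was tested.

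The RefSeq promoter windows of CXCR4 and CXCL12 are shown because these are the members that were silent or nearly silent. They are the 250 bases before the RefSeq start (GRCh38.p14), chr2:136118150-136118399 and chr10:44385098-44385347, both read on the minus strand and with every CG dinucleotide in capitals.
CXCR4: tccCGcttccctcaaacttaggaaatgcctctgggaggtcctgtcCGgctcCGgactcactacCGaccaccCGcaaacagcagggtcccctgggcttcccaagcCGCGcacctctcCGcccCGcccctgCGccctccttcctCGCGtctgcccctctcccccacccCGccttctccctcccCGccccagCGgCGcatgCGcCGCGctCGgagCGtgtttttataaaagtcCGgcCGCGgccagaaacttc
CXCL12: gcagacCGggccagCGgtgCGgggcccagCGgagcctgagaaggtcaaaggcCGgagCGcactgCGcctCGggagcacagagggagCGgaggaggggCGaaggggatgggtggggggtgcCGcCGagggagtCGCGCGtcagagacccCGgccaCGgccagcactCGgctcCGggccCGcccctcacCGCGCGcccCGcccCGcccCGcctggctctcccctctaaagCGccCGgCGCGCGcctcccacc
The CXCR4 window holds 24 CG dinucleotides and the CXCL12 window 31, where the median over 34943 promoters of the same length was 11. As many as in CXCR4 were found in 23.6% of all promoters, and as many as in CXCL12 in 10.8%. ARRB2, which was expressed in every library, also has 31 in its window. No methylation was measured, and the table held no promoter of ACKR3 or ARRB1.

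ACKR3 was the only one of 24 chemokine receptor genes that reached 1 FPKM in any library. It took 2541 of the reads of this family and the 23 others together took 645, so that 79.8% of chemokine receptor reads were its own. Its share was 91.7% and 92.1% in unstimulated control cells, 74.0% and 71.9% in unstimulated KD cells, 70.8% and 80.7% in stimulated control cells, and 42.7% and 48.6% in stimulated KD cells. The summed FPKM of the other 23 receptors stayed between 1.17 and 2.06 in the 8 libraries. Of these receptors 6 had no read at all, 12 had 1 to 20 reads over all libraries, and 5 had more. ACKR1, the Duffy antigen receptor, was the highest of them with a mean of 0.582 FPKM and a maximum of 0.871. CCRL2, an atypical receptor, reached 0.599 FPKM, CXCR6 0.330 FPKM and CCR3 0.184 FPKM. Among all 19951 protein-coding genes ACKR3 ranked 4619 by mean FPKM, above 76.8% of them.

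**Figure D2:**
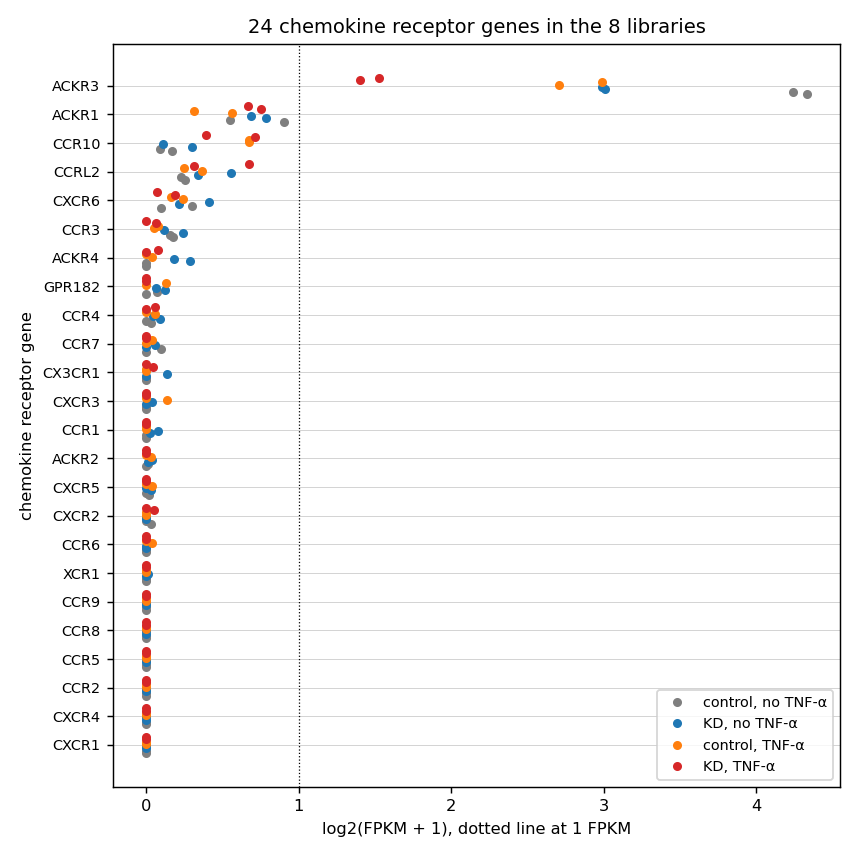
log2(FPKM + 1) on the x axis for 24 chemokine receptor genes on the y axis, ordered by mean, with 1 point for each of the 8 libraries coloured by group and a dotted line at 1 FPKM. ACKR3 is the only gene with points to the right of the line, with all 8 there, and 6 genes including CXCR4 are at 0 in all libraries.

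The related genes were tested with limma on log2(FPKM + 1) over 16528 genes, with Benjamini-Hochberg adjustment over all of them and a call at an adjusted p under 0.05. Besides ACKR3, 4 chemokine receptors passed the filter. CCR10, a receptor of skin-homing lymphocytes, was called higher with TNF-α in control cells, where 4.24% of all genes were called. ACKR1, CCRL2 and CXCR6 were not called in any of the 5 comparisons. CCR10 was 0.127 and 0.0662 FPKM in control cells without and 0.600 and 0.594 with TNF-α, a log2 difference of 0.54 (SE 0.111, adjusted p = 0.0396, limma). In KD cells it was 0.231 and 0.0791 FPKM without and 0.641 and 0.314 with TNF-α, a difference of 0.35 (adjusted p = 0.0260, limma). These levels rest on 5, 3, 12 and 4 reads in the unstimulated libraries (control, then KD) and 25, 24, 29 and 13 in the stimulated ones. The filter asked for at least 10 reads at median depth in 2 libraries. CCR10 passed it only through the stimulated libraries, where it was high. Its calls with TNF-α are therefore not independent evidence of a rise. The call in control cells was kept in 8 of 17 alternatives. It was lost without a filter on low reads (adjusted p = 0.175), with voom (0.0522), without the unstimulated KD libraries (0.0640) and without any single library of the control or unstimulated KD groups (0.0597 to 0.187). In KD cells the difference turned to -0.37 when GC content and length were corrected for, and CCR10 was then called lower (adjusted p = 0.0248, limma). The call there was lost without a filter (adjusted p = 0.0982), with scaling to total reads (0.0574), without unstimulated KD replicate 2 (0.158) and without stimulated KD replicate 1, where the difference was 0.19 (0.148).

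β-arrestin 1 rose with TNF-α in both control and KD cells. ARRB1, ENSG00000137486, spans chr11:75264182-75351705 on the minus strand and overlaps the antisense gene AP001972.2 and the microRNA gene MIR326, whose reads were 0 in all libraries. Of 5912 windows of 50 bases in its transcripts, 159 also occur in a transcript of another gene. Its level was 3.50 and 3.14 FPKM in control and 1.71 and 1.56 in KD cells without TNF-α. With TNF-α it was 5.77 and 6.09 FPKM in control and 5.38 and 5.23 in KD cells. The 4 groups did not overlap, and both stimulated groups were above both unstimulated ones. The rise with TNF-α was 0.68 in control cells (SE 0.0993, adjusted p = 0.00970, limma) and 1.26 in KD cells (adjusted p = 6.7e-05, limma), where 62.5% of all genes were called. The call in control cells was kept in 15 of 18 alternatives. It was lost with only the 4 libraries compared (adjusted p = 0.0979, limma) and without either stimulated control library (adjusted p = 0.0677 without replicate 1 and 0.0994 without replicate 2). Without the unstimulated KD libraries it stayed called.

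Knockdown lowered ARRB1 in unstimulated cells, by 0.72 on the log2 scale (adjusted p = 0.000622, limma), but this comparison called 60.1% of all genes and used the libraries that stood apart. With TNF-α, where 0.115% of all genes were called, the difference was -0.14 (SE 0.0993, adjusted p = 0.842, limma). The effect of knockdown thus differed between the conditions by 0.58 (adjusted p = 0.0121, limma) in a test that called 46.1% of all genes, 23.8% in the positive and 22.3% in the negative direction. That difference was called in 11 of 16 alternatives. It was 0.26 (adjusted p = 0.121) after correction for GC content and length and 0.38 (adjusted p = 0.0581) with scaling to total reads, and the call was also lost without unstimulated KD replicate 2 (adjusted p = 0.0504), stimulated control replicate 1 (0.0514) or stimulated KD replicate 1 (0.0523).

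ARRB2, like ARRB1, was lower after knockdown without TNF-α, but its change with TNF-α in control cells was not called. It is ENSG00000141480, chr17:4710489-4721499 on the plus strand, overlaps no other gene, and shares 1 of 4732 windows of 50 bases with another gene. Its level was 9.92 and 8.13 FPKM in control and 4.78 and 4.36 in KD cells without TNF-α. With TNF-α it was 8.70 and 8.19 FPKM in control and 7.32 and 8.44 in KD cells. The unstimulated KD libraries lay below the other 6, among which the groups overlapped. TNF-α moved it by -0.08 in control cells (SE 0.117, adjusted p = 0.787, limma), a value that became 0.048 without the first unstimulated control library, and raised it by 0.67 in KD cells (adjusted p = 0.00157, limma). Knockdown lowered it by 0.84 on the log2 scale without TNF-α (adjusted p = 0.000620, limma) and moved it by -0.09 with TNF-α (adjusted p = 0.950, limma). The effect of knockdown differed between the conditions by 0.75 (adjusted p = 0.00837, limma). The rise in KD cells, the fall without TNF-α and this difference came from comparisons that called 62.5%, 60.1% and 46.1% of all genes. All of them used the libraries that stood apart. After correction for GC content and length, the rise in KD cells was 0.13 (adjusted p = 0.304) and the difference between conditions 0.26 (adjusted p = 0.183), and neither remained called.

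The balance between both β-arrestins set the stimulated libraries apart from the unstimulated ones. The ratio of ARRB1 to ARRB2 FPKM was 0.353 and 0.387 in control and 0.357 and 0.357 in KD cells without TNF-α. With TNF-α it was 0.663 and 0.743 in control and 0.735 and 0.620 in KD cells. All 4 stimulated libraries were above all 4 unstimulated ones, by 1.90-fold in control and 1.89-fold in KD cells. This ratio was chosen after its values were seen, so it carries no test.

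Among the ligands and their processing enzymes, 6 of 12 genes passed the filter. None was called with knockdown in stimulated cells or with TNF-α in control cells. CXCL14, a chemokine reported to bind CXCR4, was 9.46 and 7.75 FPKM in control and 7.59 and 9.13 in KD cells without TNF-α, and 4.58 and 6.24 in control and 8.44 and 9.29 in KD cells with TNF-α. The stimulated control libraries were the lowest, and the effect of knockdown differed between conditions by 0.67 (adjusted p = 0.0384, limma), a call kept in 8 of 16 alternatives. It was lost with scaling to total reads (0.39, adjusted p = 0.152), with the GC and length correction (0.38, adjusted p = 0.174), without a filter on low reads (adjusted p = 0.108) and on leaving out any of 5 single libraries, either stimulated KD library, replicate 1 of unstimulated control, unstimulated KD or stimulated control (adjusted p = 0.0687 to 0.121). ADM, which encodes adrenomedullin, was 3.07 and 3.02 FPKM in unstimulated control cells and fell by 0.66 on the log2 scale in unstimulated KD cells (adjusted p = 0.000996, limma), where it was 1.71 and 1.43 FPKM. It lay between 2.08 and 2.13 FPKM in the 4 stimulated libraries. After correction for GC content and length that fall was no longer called (-0.11, adjusted p = 0.357). CXCL11, the other chemokine ligand of ACKR3, did not exceed 0.442 FPKM and was not called. DPP4, a peptidase that inactivates CXCL12, lay between 0.333 and 0.901 FPKM. With knockdown in unstimulated cells DPP4 and HMGB1 were called higher and ADM lower. That was 33.3% and 16.7% of the 6, beside 29.8% and 30.2% of all genes. After correction for GC content and length the difference of HMGB1 was -0.50. PENK, which encodes opioid peptides, had no read in any library. Of the adrenomedullin receptor genes only RAMP1 and RAMP2, which encode accessory proteins, passed the filter, out of 5, and neither was called.

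The GRKs, which phosphorylate receptors for arrestin binding, differed in level and direction. GRK6 ranged from 20.2 to 54.8 FPKM and GRK2 from 13.8 to 30.9, while GRK3 ranged from 3.20 to 6.46. In unstimulated cells knockdown lowered GRK6 by 1.07 (adjusted p = 0.000267, limma) and GRK2 by 0.89 (adjusted p = 0.000280) and raised GRK3 by 0.53 (adjusted p = 0.00676), while GRK4 and GRK5 were not called. This comparison called 60.1% of all genes and used the libraries that stood apart. Exon GC content was 62.0% in GRK6, 61.2% in GRK2 and 42.7% in GRK3. The rise of GRK3 was not kept after correction for GC content and length (0.02). With TNF-α GRK6 differed between KD and control cells by 0.07 and GRK2 by 0.05, GRK3 lay closer to 0, and none was called.

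Among 14 tested genes of Gi α subunits and of RGS proteins, which end G-protein signals, RGS4 came nearest to a call with knockdown in stimulated cells. It was 0.828 and 0.729 FPKM in control and 1.65 and 1.62 in KD cells without TNF-α, and 1.42 and 1.10 in control and 3.18 and 2.92 in KD cells with TNF-α. Its level was higher in both KD groups than in the matched control groups, opposite to ACKR3. The difference with TNF-α was 0.85 (SE 0.108, adjusted p = 0.0505, limma), with adjusted p between 0.00973 and 0.416 in the alternatives. Without TNF-α it rose by 0.57 (adjusted p = 0.00270, limma), and a correction for GC content and length took this to 0.05. GNAI2, the most abundant Gi α gene, fell by 0.67 and GNAI3 rose by 0.62 with knockdown in unstimulated cells, where 60.1% of all genes were called. With TNF-α neither GNAI2 nor GNAI3 was called with knockdown. After correction for GC content and length GNAI2 stayed called (-0.43) and GNAI3 did not (-0.0030, adjusted p = 0.980).

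**Figure D3:**
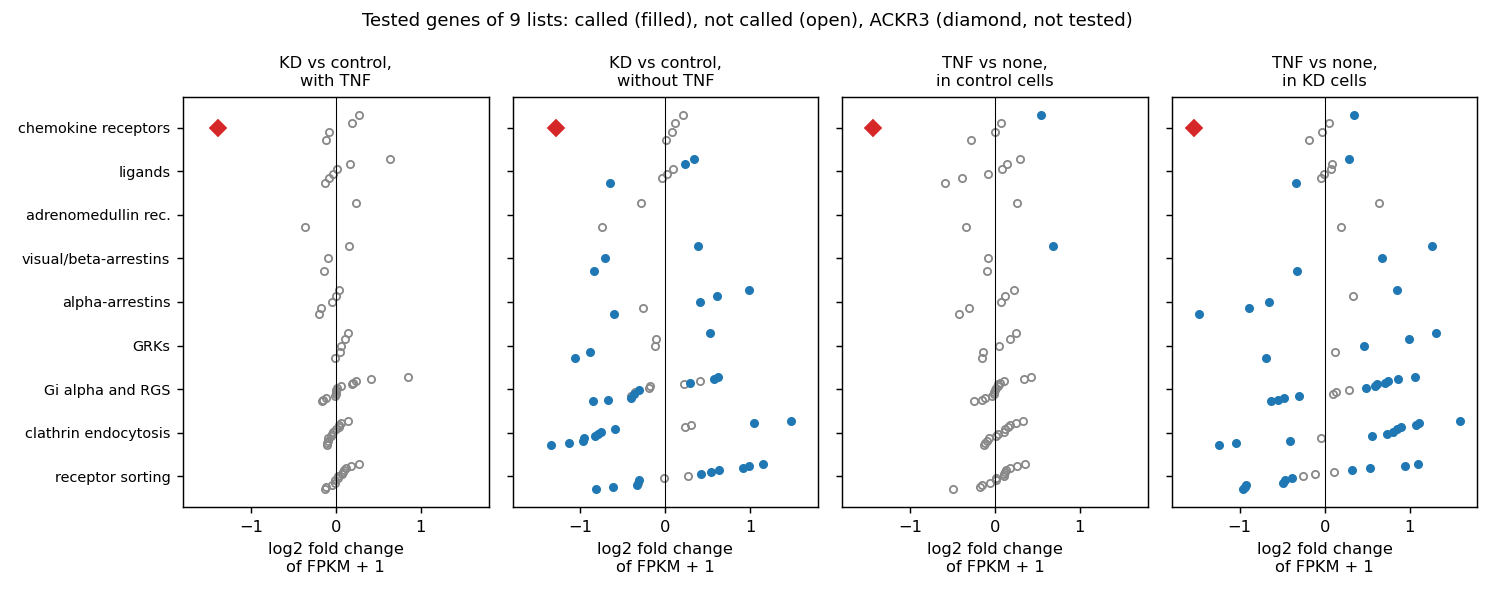
log2 fold change of FPKM + 1 on the x axis for each tested gene of 9 lists on the y axis, in 4 comparisons, with filled points for genes called at an adjusted p under 0.05 and a diamond for ACKR3, which was not tested. ACKR3 lies between -1.54 and -1.29 in all 4. No list gene is called with knockdown in stimulated cells, where 0.115% of all genes are. With knockdown in unstimulated cells 41 of 64 are called, or 64.1% beside 60.1% of all genes. With TNF-α in KD cells 46 of 64 are called, or 71.9% beside 62.5% of all genes. Both of these comparisons use the libraries that stood apart.

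Taking the 9 lists together, 97 genes besides ACKR3 were listed and 64 passed the filter. With knockdown in stimulated cells none of the 64 was called by limma, beside 0.0605% of all genes called higher and 0.0545% lower. RGS4 had the lowest adjusted p of the 64 (0.0505, limma). Voom on the recovered reads called RGS4. The log2 differences of the 64 ran from -0.36 for RAMP1 to 0.85 for RGS4, none beyond 1. Their median was 0.0045 and that of all genes tested -0.00015. With TNF-α in control cells 2 were called, ARRB1 and CCR10, both higher, which is 3.125% beside 3.1% of all genes called higher and 1.14% called lower. CCR10 had passed the filter only through its stimulated libraries. With knockdown in unstimulated cells 18 rose and 23 fell, or 28.1% and 35.9% beside 29.8% and 30.2% of all genes, and 64.1% in all beside 60.1%. With TNF-α in KD cells 27 rose and 19 fell, or 42.2% and 29.7% beside 31.1% and 31.4% of all genes, and 71.9% in all beside 62.5%.

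Clathrin and its adaptors, which carry β-arrestin-bound receptors into the cell, were measured in full, with all 12 genes tested. In unstimulated cells, in the comparison with the libraries that stood apart, knockdown lowered 8 of them and raised 2, or 66.7% and 16.7% beside 30.2% and 29.8% of all genes. Their median log2 difference was -0.78 and that of all genes -0.0010. CLTB, a clathrin light chain, fell by 1.35 (adjusted p = 0.000556, limma), from 124 and 88.0 FPKM to 46.1 and 35.5. CLTC, the clathrin heavy chain, rose by 1.47 (adjusted p = 0.000198, limma), from 19.9 and 27.3 FPKM to 62.1 and 71.4. In stimulated cells none of the 12 was called, and the differences for CLTB and CLTC were 0.00 and -0.10. Of 13 genes of receptor sorting after endocytosis, knockdown in unstimulated cells raised 6 and lowered 4, or 46.2% and 30.8% beside 29.8% and 30.2% of all genes, with a median of 0.27. ITCH, a ubiquitin ligase that marks CXCR4 for degradation, rose by 0.91 (adjusted p = 0.00131, limma), and HGS, a subunit of the sorting complex ESCRT-0, fell by 0.62 (adjusted p = 0.000827, limma), but neither call was kept after correction for GC content and length. Exon GC content moved with these directions. Its median was 40.0% in the 18 list genes that rose and 58.8% in the 23 that fell, and over 16520 genes Spearman's rho of the log2 difference with GC content was -0.68, as a description across genes, against 0.03 with knockdown in stimulated cells. The part of GC content in these changes was not tested beyond the correction.

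Of the α-arrestins, which act as adaptors for ubiquitin ligases, 5 of 6 were tested. ARRDC3 was 0.595 and 1.08 FPKM in control and 2.47 and 2.73 in KD cells without TNF-α, and between 0.235 and 0.522 in the 4 stimulated libraries. It rose by 0.98 with knockdown without TNF-α and fell by 1.48 with TNF-α in KD cells (adjusted p = 9.3e-05, limma). These comparisons called 60.1% and 62.5% of all genes, and both used the unstimulated KD libraries that stood apart. TXNIP, an α-arrestin that restrains glucose uptake, was between 4.86 and 5.36 FPKM in unstimulated KD cells, 3.37 and 3.84 in unstimulated control cells and between 2.11 and 2.51 in the stimulated libraries. Neither was called with knockdown in stimulated cells.

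The genes with a profile most like that of ACKR3 were sought over the 8 libraries among 3993 protein-coding genes that passed the filter and spanned at least 1 on the log2 scale. By Pearson's r of log2(FPKM + 1) they were FOXS1 (0.984), EPHB3 (0.981), EDN2 (0.976), TMEM45A (0.976) and HOXC13 (0.961), and 16 genes reached 0.9. These correlations describe 8 libraries in 4 groups and carry no p. FOXS1, a forkhead transcription factor, was 6.83 and 5.56 FPKM in unstimulated control cells and 0.176 and 0.336 FPKM in stimulated KD cells. EPHB3, an ephrin receptor, went from 4.58 and 4.02 FPKM to 0.932 and 0.977 between the same groups, and EDN2, the vasoconstrictor endothelin 2, from 20.2 and 14.9 FPKM to 4.59 and 4.13. By Spearman's rank 2 of the 5 remained among the top 5, and 4 did with a pseudocount of 0.1 or with scaling to total reads.

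**Figure D4:**
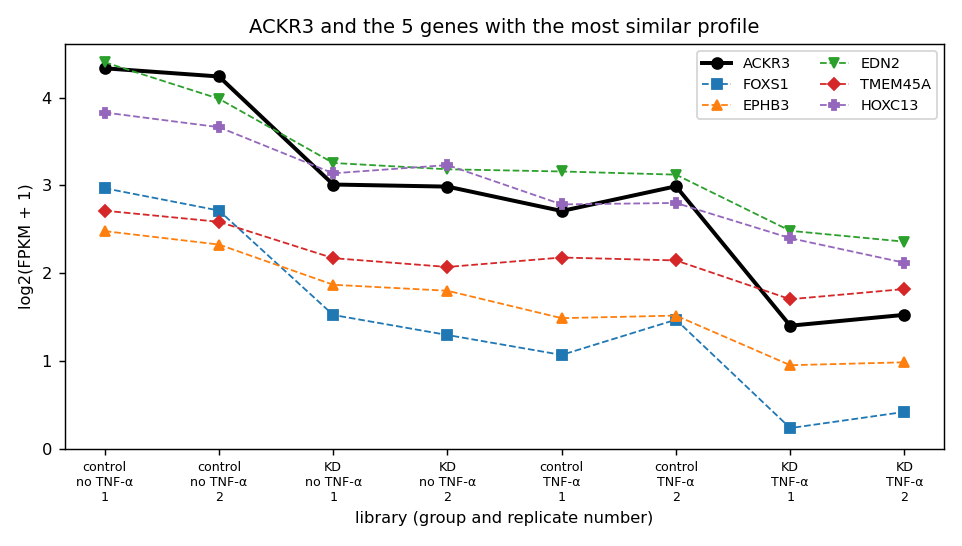
log2(FPKM + 1) on the y axis in each of the 8 libraries on the x axis for ACKR3 (heavy line) and the 5 genes with the highest Pearson correlation to it, FOXS1, EPHB3, EDN2, TMEM45A and HOXC13. All 6 are highest in unstimulated control cells and lowest in stimulated KD cells, and the lines join libraries only to ease reading.

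The genes beside ACKR3 on chromosome 2 were not called. Within 500 kb, AGAP1 and IQCA1 passed the filter. AGAP1 lay between 3.33 and 4.52 FPKM and IQCA1 between 1.25 and 1.55 FPKM over all libraries. Neither was called in any of the 5 comparisons, and with knockdown in stimulated cells their differences were 0.10 (SE 0.111, adjusted p = 0.939, limma) and -0.08 (SE 0.0924, adjusted p = 0.943, limma).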

How the data were processed

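The authors deposited FPKM values for 58735 genes in 8 libraries. The submitters' processing notes name CASAVA 1.8, fastp, HISAT2 2.0.5, featureCounts 1.5.0-p3, DESeq2 1.20.0 and GRCh38, and the strand of counting is not given in the sources used here. Gene positions match release 29 of GENCODE for all 58735 genes. Each value times the gene length was divided by a unit fitted for each library. The result was a whole number of reads for 100% of values (tolerance 0.05 reads or the rounding of the file), which gave 15601098 to 18677023 reads per library. The FPKM had been scaled with median-of-ratios size factors over all 8 libraries. From them log2(FPKM + 1) was tested with limma 3.58.1 in R 4.3.3, with a mean per group, a variance trend and 4 residual degrees of freedom, for 16528 genes with at least 10 reads at median depth in 2 libraries and 15 in all. A count model was not used on FPKM, although the study's methods name one, and voom on the recovered reads was an alternative. The script was tested on simulated data. Groups came from the labels. The named genes were the 5 members, WSB2, the genes of the 9 lists, the genes within 500 kb of ACKR3 and CXCR4, and the 5 genes most correlated with ACKR3. Members and lists were chosen with earlier results of these data known. Sequences came from RefSeq and GENCODE.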

Additional observations from a re-analysis of the deposited data

Results flagged for a closer look

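The effect of WSB2 knockdown differed between stimulated and unstimulated cells, by a test of the difference itself, for both β-arrestins. For ARRB1 the effect with TNF-α minus that without was 0.58 on the log2 scale (SE 0.140, adjusted p = 0.0121, limma), and for ARRB2 it was 0.75 (SE 0.165, adjusted p = 0.00837, limma). Among the 64 tested list genes 39 had such a difference, 25 in the positive and 14 in the negative direction, or 60.9% where 46.1% of all genes tested did. After correction for GC content and length neither β-arrestin was called (ARRB1 0.26, adjusted p = 0.121, and ARRB2 0.26, adjusted p = 0.183, limma). The ARRB1 call was kept in 11 of 16 alternatives and the ARRB2 call in 15 of 16. All of these differences use the unstimulated KD libraries, which stood apart in mitochondrial reads, GC content and number of genes with a read, and the part of that in the differences was not tested beyond the correction for GC content and length.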

How the results depend on the processing

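ACKR3 stayed lower with knockdown and with TNF-α under every alternative run. Its log2 difference with knockdown and TNF-α was -1.76 with a pseudocount of 0.1 and -1.82 with voom, and ran from -1.53 to -1.25 when single libraries were left out. Without TNF-α it was -1.51 with upper-quartile factors, -1.04 with total reads, -1.41 with voom and -1.09 with the GC and length correction. With TNF-α against none it was -1.57 with a pseudocount of 0.1 and -1.58 with voom in control cells (-1.58 to -1.30 leaving out libraries), and in KD cells -1.94 with a pseudocount of 0.1, -1.37 with upper-quartile factors, -1.85 with total reads, -1.99 with voom and -1.72 with the GC and length correction. Its knockdown effect with minus without TNF-α was -0.37, 0.11, -0.34, -0.41 and -0.30 in that order, and -0.24 to 0.045 leaving out libraries.

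The number of genes called with knockdown and TNF-α, 19 in all and 0 in the lists, became 7 without a filter on low reads, 12 with upper-quartile factors, 52 with voom, 68 with the GC and length correction, 39 with only the 4 libraries compared and 7 without the unstimulated KD libraries, which were left out after seeing the data. Leaving out single libraries gave 0 to 98, the highest without unstimulated control replicate 1. In the lists 1 gene, RGS4, was called with at least 1 CPM, with voom and with the GC and length correction, and 0 to 1 leaving out libraries. With TNF-α in control cells 701 genes became 368 without a filter, 238 with only the 4 libraries and 443 without the unstimulated KD libraries, and 229 to 2130 leaving out libraries, the highest without unstimulated control replicate 2. The 2 list genes became 1 without a filter, with at least 1 CPM, with only the 4 libraries and without the unstimulated KD libraries, and 0 to 7 leaving out libraries. ARRB1 kept a difference of 0.68 with only the 4 libraries but lost its call, with 0.62 to 0.74 leaving out libraries. ARRB2 ran from -0.21 to 0.048. With the GC and length correction the rise of ARRB2 with TNF-α in KD cells was 0.13, and the knockdown effect with minus without TNF-α was 0.26 for ARRB1 and 0.26 for ARRB2. The latter was 0.38 for ARRB1 with total reads and 0.52 to 0.64 leaving out libraries, and the list count of 39 ran from 25 to 42. The cause of these changes was not tested. By Spearman's rank 2 of the 5 genes most like ACKR3 stayed in the top 5.

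Among other list genes 17 differences changed sign and 104 lost their call, while 952 kept direction and call. These are counts over genes, comparisons and settings that left out no single library. More calls were lost on leaving out single libraries. With knockdown alone the changes of sign were HMGB1 (-0.013 with upper-quartile factors) and, with the GC and length correction, HMGB1 (-0.50), GNAI3 (-0.0030), GNAZ (0.10), RGS5 (-0.45) and USP14 (-0.22). With TNF-α in KD cells these were TSG101 with total reads (-0.024) and, with the GC and length correction, CCR10 (-0.37), ADM (-0.28), HMGB1 (0.35), GNAI1 (0.31), RGS5 (0.41), USP14 (0.17) and VPS4B (0.14), and for the difference between the knockdown effects GNAI3 (0.014), RGS5 (0.46) and USP14 (0.18). Total reads moved the median of all genes by 0.13 with knockdown alone and by -0.18 with TNF-α in KD cells.

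The labels do not say that replicate numbers pair libraries across groups. Deviations of same-numbered libraries correlated at 0.35 between unstimulated control and KD cells and at -0.19 to 0.017 between the other groups. Whether same-numbered libraries were handled together was not tested. With the replicate number as a block, calls with knockdown and TNF-α went from 19 to 10. No alternative fit of the interaction is possible with only the 4 libraries.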
